A study of Mus musculus with 18 samples.

Results

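Microtubule motors carry cargo along axons, and 70 protein-coding mouse genes of the kinesin, dynein and dynactin families are described here in sensory neurons whose axons had been severed. The members were chosen by gene symbol, not by any measured value. The rule took the GENCODE vM21 symbols of the Kif, Kifc, Kifa, Klc, Dync1, Dync2, Dynll, Dynlr, Dynlt and Dctn families. It matched 75 symbols, of which 5 were not protein coding and were set aside. All 70 members were among the 47643 genes of the files. Of these, 14 are mitotic kinesins, which move chromosomes and spindles in dividing cells and are given apart. Kif1bp, which also matched the pattern, is a kinesin-binding protein and not a motor.

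All libraries came from dorsal root ganglia (DRG) of CD-1 mice (stage e13.5), grown as spot cultures (eDRG spot). The growth medium held nerve growth factor and fluorodeoxyuridine (FDU), a mitotic inhibitor, in all cultures. Uninjured control cultures were collected at 7 days in vitro, and in the other cultures a blade severed the axons and RNA was taken 1 h, 3 h, 8 h, 16 h or 24 h later (hours post injury, HPI), with 3 replicates in each of the 6 groups. The comparison of each hour with control asks how transcript levels of the neurons changed with axotomy. The injured cultures were also older than the controls by the hours that had passed, so injury and time in culture cannot be told apart. No source used here says whether the replicates came from separate cultures or litters. The p-values measure the spread between these libraries that is left after differences between replicate numbers are removed. That spread may be technical.

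Kinesins mostly walk toward the plus ends of microtubules, which point to the axon tip, and so drive anterograde transport. Cytoplasmic dynein 1 walks toward the minus ends and brings cargo, signaling endosomes among them, back to the cell body, with dynactin as its partner for cargo binding and processive movement. In sensory neurons, whose axons are very long, both directions are needed to supply the axon and to carry injury signals to the soma.

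For sequence context, the 250 bases before a RefSeq transcription start (GRCm38.p6) are shown for Dync1h1, Kif1a and Kif26b, the members that passed the test in the lower direction at 8, 16 and 24 HPI, and for Kif1b, which passed at 16 and 24 HPI. Each is written 5′ to 3′ on the strand of its gene. Capitals mark the GC box, read as GGGCGG or, on the other strand, CCGCCC.
Dync1h1, chr12:110601145-110601394, plus strand: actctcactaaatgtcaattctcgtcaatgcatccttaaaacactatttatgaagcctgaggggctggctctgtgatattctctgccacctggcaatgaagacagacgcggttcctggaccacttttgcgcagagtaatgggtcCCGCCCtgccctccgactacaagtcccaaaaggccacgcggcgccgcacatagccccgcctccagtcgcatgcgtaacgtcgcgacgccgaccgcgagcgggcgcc
Kif1a, chr1:93101875-93102124, minus strand: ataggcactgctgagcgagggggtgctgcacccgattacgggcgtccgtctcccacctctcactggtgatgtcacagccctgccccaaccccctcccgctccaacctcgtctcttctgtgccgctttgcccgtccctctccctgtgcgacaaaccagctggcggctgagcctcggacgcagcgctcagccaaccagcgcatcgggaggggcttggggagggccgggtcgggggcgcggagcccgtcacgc
Kif26b, chr1:178528875-178529124, plus strand: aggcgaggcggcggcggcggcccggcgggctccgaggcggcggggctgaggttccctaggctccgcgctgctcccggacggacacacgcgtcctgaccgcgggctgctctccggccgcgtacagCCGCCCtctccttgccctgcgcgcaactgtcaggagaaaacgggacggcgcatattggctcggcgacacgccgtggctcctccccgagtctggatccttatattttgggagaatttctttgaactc
Kif1b, chr4:149307699-149307948, minus strand: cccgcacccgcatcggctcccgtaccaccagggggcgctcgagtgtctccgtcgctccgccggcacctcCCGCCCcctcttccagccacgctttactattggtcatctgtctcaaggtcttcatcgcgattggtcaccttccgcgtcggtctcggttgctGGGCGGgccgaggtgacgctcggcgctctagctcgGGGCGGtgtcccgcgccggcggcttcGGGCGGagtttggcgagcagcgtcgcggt
The Kif1b window shown held 4 GC boxes, those of Dync1h1 and Kif26b held 1 each, and that of Kif1a held none. Kif1b and Kif1a each have a second listed window, farther from the GENCODE gene start, which held 3 and 0 GC boxes. In the RefSeq table, 52 member genes had a promoter, 59 promoters in all, and 59.3% of these held a GC box, against 32.7% of all 32851 promoters of the table. The median GC content was 59.6% in the member promoters and 52.4% in all. The letters CCAAT, on either strand, were found in 44.1% of member promoters and 33.8% of all, and the cyclic AMP response element TGACGTCA in 6.78% and 1.55%. The AP-1 letters TGANTCA were in 0 of the 59 member promoters and in 6.75% of all, and TATAAA was in 8.47% and 12.4%. These are matches of letters and not binding sites.

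Counts on genes numbered from 9478891 to 23082327 in the 18 libraries, and a further 25.2% to 33.2% of each library's counts fell on entries that name no gene. Residual rRNA took 4.60% of the counts in 16 HPI replicate 1 and between 0.690% and 1.70% in the others. Mitochondrially encoded genes took from 14.9% (8 HPI replicate 3) to 24.1% (24 HPI replicate 1) of the counts. Their share was 22.4% in 16 HPI replicate 1 and 15.2% to 19.8% in control. Summed markers of sensory neurons ranged from 8552 to 9048 CPM in control and from 7458 to 8310 CPM at 24 HPI. In CPM, each library's counts on genes, residual rRNA and mitochondrial counts included, are scaled to a common total. Of the 6 neuronal markers, 2 passed the test higher and 2 lower at 24 HPI against control, beside 5.99% and 9.03% of all genes. Their median log2 fold change was -0.06. From 16 to 24 HPI, 2 were higher and 0 lower, beside 3.59% and 6.22% of all genes. Markers of satellite glia and Schwann cells summed to between 1.53 and 13.1 CPM in any library, and markers of fibroblasts to between 1.21 and 19.5 CPM. Myeloid markers summed to 3.49 to 5.53 CPM in control and 6.46 to 7.51 CPM at 24 HPI. At both 16 and 24 HPI, 1 fibroblast marker (over 2-fold) and 1 myeloid marker passed higher, and none lower. Of all genes, 10.7% and 5.99% were higher. No glial marker passed at these hours, with a median log2 fold change of 0.85 at 24 HPI. The part of such cells in the members' values was not tested. The filter for testing was reached by 0 of 5 endothelial markers, 3 of 8 glial, 4 of 6 fibroblast and 2 of 5 myeloid markers. In bulk RNA, fewer cells of a type and less RNA per cell cannot be told apart.

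In uninjured neurons the motor genes spanned a wide range of levels. Levels between genes were compared as RPKM, which is CPM divided by the total exon length in kilobases. In control, 17 members had over 50 RPKM, 15 had between 10 and 50, 12 had between 1 and 10, and 26 had up to 1 RPKM. Klc1, the light chain that links kinesin-1 to cargo, was the highest member at 280 ± 10.5 RPKM (SD, n = 3). The range of its 3 libraries lay above that of the next member. Kif1a, a kinesin-3 that moves synaptic vesicle precursors and dense core vesicles, followed at 225 ± 9.16 RPKM. Kif5a, a neuronal kinesin-1 heavy chain, had 224 ± 11.0 RPKM, and its range overlapped that of Kif1a.

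**Figure D1:**
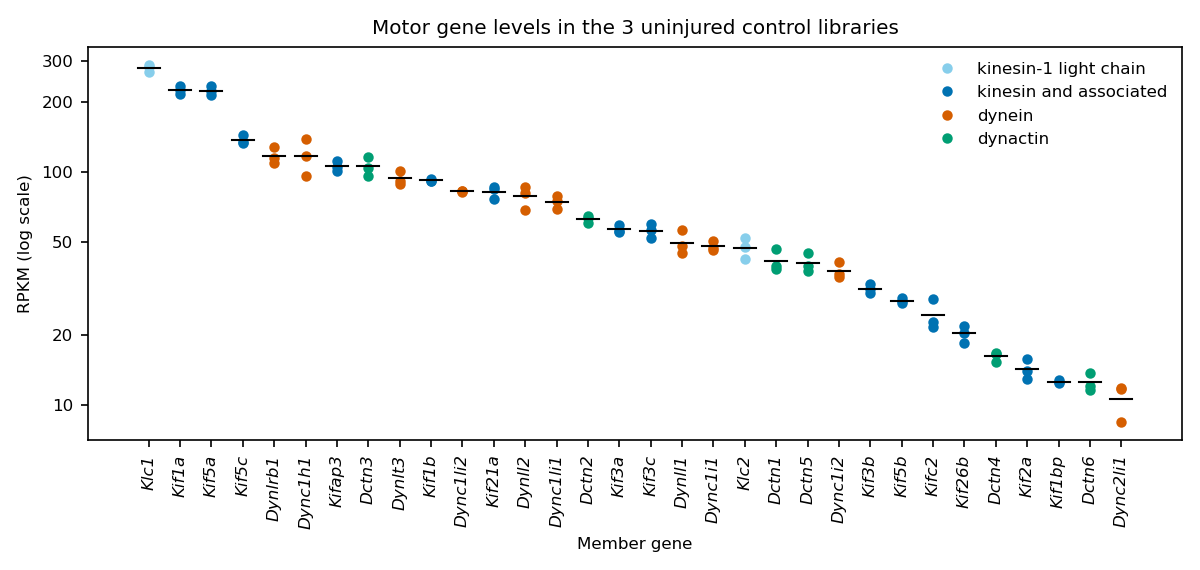
The plot shows RPKM on a log scale in each of the 3 control libraries (points) with their mean (line) for the 32 members over 10 RPKM. Klc1, Kif1a and Kif5a lead, and many neighbours in the order overlap.

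Kif5c, a further neuronal kinesin-1, stood alone at 138 ± 5.91 RPKM. Below it came Dynlrb1, a dynein light chain of the roadblock type, at 118 ± 9.49 RPKM, and Dync1h1, the heavy chain that holds the dynein motor, at 117 ± 21.1 RPKM. Kifap3, the cargo-binding subunit of kinesin-2, and the dynactin subunit Dctn3 both had 106 RPKM (SD 4.89 and 9.78), and Dynlt3, a Tctex-type light chain, had 94.2 ± 6.16 RPKM. Each of these neighbours, from Dynlrb1 down to Dynlt3 and on to Kif1b at 92.2 ± 1.10 RPKM, overlapped the next in range. With the longest transcript in place of the total exon length, 22 members lay over 50 RPKM.

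Within families, 1 paralogue often supplied most of the transcript per length. Kif5a made up 57.5% ± 0.792 of the summed RPKM of the kinesin-1 heavy chains in control, Kif5c 35.3% ± 0.636 and the widely expressed Kif5b 7.20% ± 0.189 (SD, n = 3). Klc1 made up 83.8% ± 1.32 of the light chains. Kif1a made up 70.6% ± 0.944 of the Kif1 motors, and Kif26b 98.2% of the Kif26 pair. The kinesin-2 motors were more even, at 39.3% for Kif3a, 38.8% for Kif3c and 21.9% for Kif3b. The intermediate chain Dync1i1 supplied 56.0% ± 2.65 of its pair, and the light intermediate chain Dync1li1 47.3% ± 1.62 of its own. Of the Kif3c transcript, 43.4% of 50-base windows also occur in other annotated genes, so its share is less certain.

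At 1 and 3 HPI, 0 of the 56 tested members passed (edgeR quasi-likelihood, Benjamini-Hochberg adjusted p under 0.05), beside 0.276% and 0.189% of all 13771 genes tested. Those genes split into 0.0944% higher and 0.182% lower at 1 HPI and 0.0436% higher and 0.145% lower at 3 HPI. At an unadjusted p under 0.05, 13 members stood out at 1 HPI (2 higher, 11 lower) and 10 at 3 HPI (4 higher, 6 lower), which is 23.2% and 17.9% of the members, beside 12.8% and 14.5% of all genes. The DESeq2 Wald test passed 3 members at 1 HPI (Dync1h1, Kif1a and Kif26b, all lower) and 1 at 3 HPI (Dync1h1, lower).

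From 8 HPI on, single members moved by modest amounts. At 8 HPI, 1 member was higher and 5 were lower, 10.7% of the 56, while 7.68% of all genes tested passed. At 16 HPI, 2 were higher and 9 lower, 19.6%, beside 22.2% of all genes. At 24 HPI, 3 were higher and 7 lower, 17.9%, beside 15.0% of all genes. The members' share passing was thus near that of all genes at 16 and 24 HPI. Members in the lower direction made up 8.93%, 16.1% and 12.5% at the 3 hours, against 3.90%, 11.5% and 9.03% of all genes, and members in the higher direction 1.79%, 3.57% and 5.36%, against 3.78%, 10.7% and 5.99%. No member passed with a change over 2-fold at any hour, where 0.0290%, 0.0290%, 0.537%, 1.49% and 0.821% of all genes did at 1, 3, 8, 16 and 24 HPI. Control and injured libraries did not overlap in CPM for 4, 4, 8, 9 and 11 members (7.14%, 7.14%, 14.3%, 16.1% and 19.6%), beside 7.41%, 8.07%, 11.4%, 16.2% and 15.0% of all genes. All 5 comparisons share the same 3 control libraries.

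**Figure D2:**
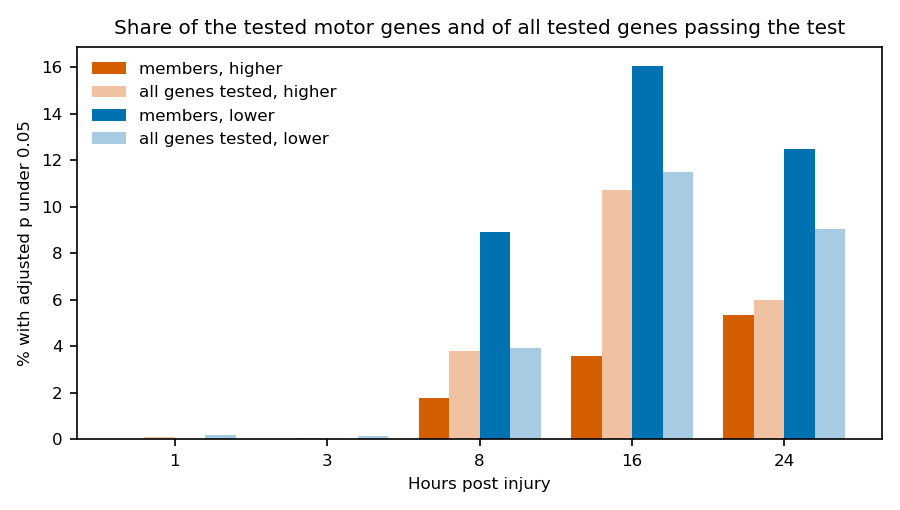
Bars give the percentage of the 56 tested members and of all 13771 genes tested that passed the test (adjusted p under 0.05) at each hour post injury, by direction. From 8 HPI the member bars lie above those of all genes in the lower direction and below them in the higher direction. They stand for few genes, 1, 2 and 3 higher and 5, 9 and 7 lower at 8, 16 and 24 HPI. In the higher direction at 24 HPI the shares are close, 5.36% and 5.99%. The differences in share were not tested.

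The passing counts rest on the block for replicate number. Without it, 0, 2 and 2 members passed at 8, 16 and 24 HPI in place of 6, 11 and 10, and the members that still passed were Kif1a and Kif26b at 16 HPI and Kif1a and Dync1h1 at 24 HPI, all lower. At 8 HPI the count also fell to 3 without any 1 of the 3 control libraries, to 2 without 8 HPI replicate 1 and to 1 without 8 HPI replicate 3. The median log2 fold change of the tested members was -0.03, -0.06 and -0.08 at 8, 16 and 24 HPI, and 41 to 49 of the 56 members lay within 0.25 of no change at every hour. Between hours, 8 members differed between 16 and 8 HPI (2 higher and 6 lower at 16 HPI, 14.3%, beside 15.2% of all genes, 7.30% higher and 7.86% lower) and 2 between 24 and 16 HPI (1 in each direction, 3.57%, beside 9.82%, 3.59% higher and 6.22% lower). No member passed over 2-fold in either, beside 0.937% and 0.508% of all genes. Without the replicate block, 0 passed in either.

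**Figure D3:**
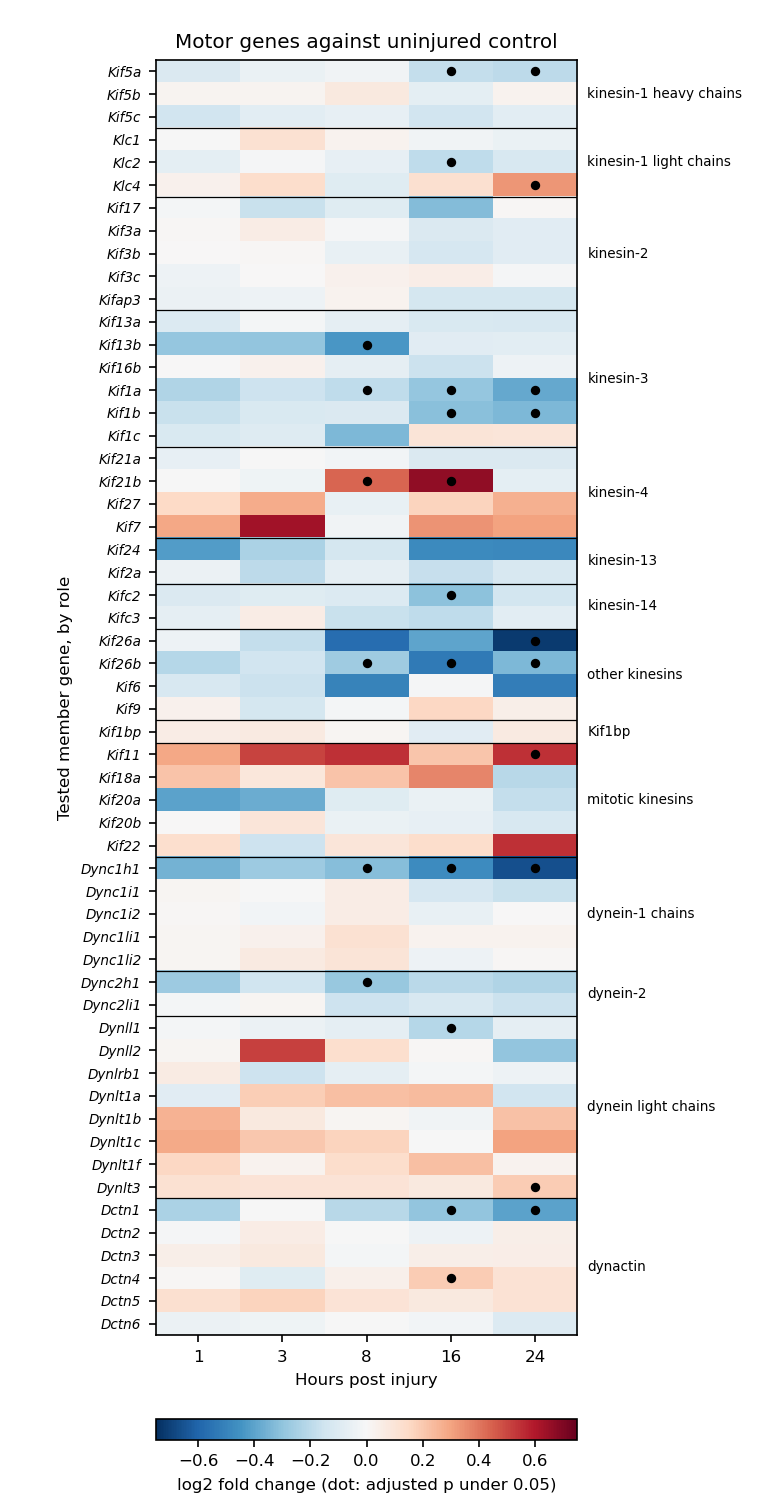
The map shows the log2 fold change against control (color) of the 56 tested members, grouped by role, at each hour post injury, with a dot where the adjusted p was under 0.05. Most cells are pale, and the dots fall in single genes of different roles.

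Dync1h1, the heavy chain of cytoplasmic dynein 1, had the largest decrease at 24 HPI among the 39 members over 10 CPM in control. Its level was 1514, 1831 and 2173 CPM in the control libraries (replicates 1 to 3), 1150, 1380 and 1492 CPM at 16 HPI, and 984, 1186 and 1333 CPM at 24 HPI. Every library at 16 and 24 HPI was below every control library. The log2 fold change was -0.32 (SE 0.0796, adjusted p = 0.0164) at 8 HPI, -0.47 (SE 0.0797, adjusted p = 0.000195) at 16 HPI and -0.66 (SE 0.0798, adjusted p = 1.58e-05) at 24 HPI, a decrease of 36.8%. The step from 16 to 24 HPI was not significant (log2 fold change -0.19, adjusted p = 0.139). At 8 HPI the groups overlapped, with 1251, 1490 and 1638 CPM, and leaving out control replicate 2 or 3 gave an adjusted p of 0.0909 or 0.0612, and leaving out 8 HPI replicate 1 or 3 gave 0.0649 or 0.110. At 16 HPI the adjusted p was 0.0854 without the replicate block. The level at 1 HPI was already 1211, 1309 and 1852 CPM, overlapping control, and a value of -0.35 on the log2 scale did not pass (SE 0.0796, adjusted p = 0.0623), though it passed in DESeq2 (adjusted p = 0.00195).

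The other dynein 1 chains did not follow the heavy chain past the test. Dync1i1, an intermediate chain that binds dynactin, had 168, 180 and 166 CPM in control and 177, 151 and 135 CPM at 24 HPI. These groups overlapped (log2 fold change -0.16, 95% interval -0.32 to -0.01, adjusted p = 0.149). Dync1i2, its more widely expressed paralogue, stood at 0.00 on the log2 scale against control at 24 HPI (-0.09 to 0.10). The light intermediate chains Dync1li1 and Dync1li2, which join dynein to cargo adaptors, had 0.02 (-0.06 to 0.11) and 0.01 (-0.09 to 0.11). So 1 of the 5 chains passed at 24 HPI. The summed level of the 16 dynein genes went from between 3625 and 4245 CPM in control to between 3046 and 3379 CPM at 24 HPI, and Dync1h1 alone supplied 1839 of the mean of 3944 CPM in control.

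Among the light chains, Dynll1 (LC8) had 220, 187 and 175 CPM in control and 161, 182 and 167 CPM at 16 HPI. The groups overlapped, and the log2 fold change of -0.21 (SE 0.0595) passed with an adjusted p of 0.0132. Leaving out control replicate 1 gave -0.13 (adjusted p = 0.149), and leaving out 16 HPI replicate 1 gave -0.19 (adjusted p = 0.0814). Dynlt3 had 260, 237 and 230 CPM in control and 292, 273 and 271 CPM at 24 HPI, where every injured library was above every control library. Its log2 fold change of 0.19 (SE 0.0533, adjusted p = 0.0177) was lost on leaving out control replicate 2 or 3 or 24 HPI replicate 1 or 3 (adjusted p from 0.0655 to 0.0912). Dynlrb1, the highest light chain per length, had 111, 130 and 116 CPM in control and 117, 127 and 105 CPM at 24 HPI, overlapping, which is -0.04 on the log2 scale (-0.18 to 0.11).

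Dynll2, the paralogue of Dynll1, differed over the course (adjusted p = 0.0124) without passing at any single hour against control. Its level was 189, 237 and 223 CPM in control, 214, 255 and 187 CPM at 1 HPI, and 227, 265 and 446 CPM at 3 HPI, so that 1 library of 3 HPI, replicate 3, was far above the rest. That hour differed from control by 0.51 on the log2 scale (SE 0.161, adjusted p = 0.149). It had 198, 250 and 260 CPM at 8 HPI and 166, 307 and 202 CPM at 16 HPI. At 24 HPI it was -0.30 (adjusted p = 0.233), with 134, 226 and 181 CPM.

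The Tctex-type copies Dynlt1a, Dynlt1b, Dynlt1c and Dynlt1f cannot be counted apart with confidence. Of the 50-base windows of their transcripts, 67.7%, 83.2%, 93.7% and 93.1% also occur in other annotated genes, with the other copies sharing the most. A stretch of the coding sequence that Dynlt1b, Dynlt1c and Dynlt1f hold in common, bases 22 to 71 of 339, is shown from GENCODE vM21 on GRCm38, with capitals for bases that are the same in the 3 genes.
Dynlt1b, Dynlt1c and Dynlt1f: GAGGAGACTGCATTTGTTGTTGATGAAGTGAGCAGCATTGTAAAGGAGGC
Over the whole coding sequence, Dynlt1c and Dynlt1f each equaled Dynlt1b at 338 of 339 positions. No copy passed at any hour. Shared windows also made up 12.5% of the Klc2 transcript and 23.0% of that of Kif2a.

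Dync2h1, the heavy chain of dynein 2, which works in cilia, had 22.9, 21.7 and 26.7 CPM in control and 19.3, 19.7 and 19.6 CPM at 8 HPI, where all injured libraries were below all controls. Its log2 fold change of -0.29 (SE 0.0863, adjusted p = 0.0464) at 8 HPI was lost without any 1 of 9 libraries (the 3 controls, 1 HPI replicates 2 and 3, 3 HPI replicate 3, 8 HPI replicates 1 and 3, and 24 HPI replicate 2), with an adjusted p from 0.0508 to 0.248. At 16 and 24 HPI it had -0.20 (adjusted p = 0.0889) and -0.22 (adjusted p = 0.0730). Dync2li1, the light intermediate chain of dynein 2, had 15.8, 22.0 and 21.9 CPM in control and 14.7, 19.3 and 19.7 CPM at 24 HPI, and did not pass at any hour.

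In dynactin, Dctn1 fell and Dctn4 rose. Dctn1 encodes p150Glued, the subunit that binds microtubules and the dynein intermediate chain. It had 251, 258 and 304 CPM in control, 197, 239 and 234 CPM at 16 HPI, and 159, 229 and 234 CPM at 24 HPI. All injured libraries at both hours were below all controls, and 24 HPI replicate 1 was the lowest. Against control it changed by -0.29 on the log2 scale (SE 0.0901, adjusted p = 0.0221) at 16 HPI and -0.40 (SE 0.0900, adjusted p = 0.00410) at 24 HPI. At 16 HPI the call was lost on leaving out control replicate 1 (adjusted p = 0.0846), control replicate 2 (0.0561) or 16 HPI replicate 3 (0.164), and in DESeq2 (0.0673). Dctn4, a subunit of the pointed end of the dynactin filament, had 178, 193 and 193 CPM in control and 210, 214 and 229 CPM at 16 HPI, again without overlap. It rose by 0.19 on the log2 scale (SE 0.0493, adjusted p = 0.00767), which was lost on leaving out control replicate 1 (adjusted p = 0.0536) or 16 HPI replicate 1 (0.0561). Dctn2 (dynamitin), which holds the shoulder of the complex together, had 0.04 (-0.06 to 0.14) at 24 HPI, and Dctn3, the highest dynactin member per length, had 121, 109 and 101 CPM in control and 107, 124 and 114 CPM at 24 HPI, overlapping (0.05, -0.07 to 0.18).

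Among the kinesin-3 motors, Kif1a and Kif1b fell at both 16 and 24 HPI. Kif1a had 2014, 2103 and 2185 CPM in control, 1732, 1879 and 1898 CPM at 8 HPI, 1627, 1858 and 1750 CPM at 16 HPI, and 1517, 1688 and 1660 CPM at 24 HPI. At every hour, 1 and 3 HPI included, all injured libraries were below all control libraries. It differed from control by -0.19 on the log2 scale (SE 0.0552, adjusted p = 0.0397) at 8 HPI, -0.29 (SE 0.0552, adjusted p = 0.000597) at 16 HPI and -0.38 (SE 0.0552, adjusted p = 7.95e-05) at 24 HPI, and so fell by 23.4% at the last hour. At 8 HPI the call was lost without any 1 of the 6 control and 8 HPI libraries (adjusted p from 0.0634 to 0.145) and without 1 HPI replicate 2 (0.0528). At 16 and 24 HPI Kif1a passed also without the replicate block (adjusted p = 0.0146 and 0.00902).

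Kif1b, which carries mitochondria and synaptic vesicle precursors, had 1645, 1607 and 1618 CPM in control. It had 1366, 1372 and 1236 CPM at 16 HPI and 1352, 1297 and 1238 CPM at 24 HPI. No injured library at these hours reached the control range. These are log2 fold changes of -0.32 (SE 0.0565, adjusted p = 0.000320) and -0.34 (SE 0.0565, adjusted p = 0.000396), and without the replicate block the adjusted p was 0.111 and 0.157. At 8 HPI it was -0.11 (adjusted p = 0.266). Kif13b, a further kinesin-3, passed at 8 HPI and at no other hour, with 39.4, 35.5 and 56.8 CPM in control and 33.9, 27.2 and 35.2 CPM at 8 HPI. The injured libraries were all below control, control replicate 3 being the highest, and the difference was -0.43 on the log2 scale (SE 0.0982, adjusted p = 0.00949). It was -0.34 on leaving out control replicate 3 (adjusted p = 0.0931) or 8 HPI replicate 3 (adjusted p = 0.105). At 16 HPI Kif13b stood at 38.2, 40.5 and 45.8 CPM, higher than at 8 HPI by 0.35 on the log2 scale (adjusted p = 0.0190).

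**Figure D4:**
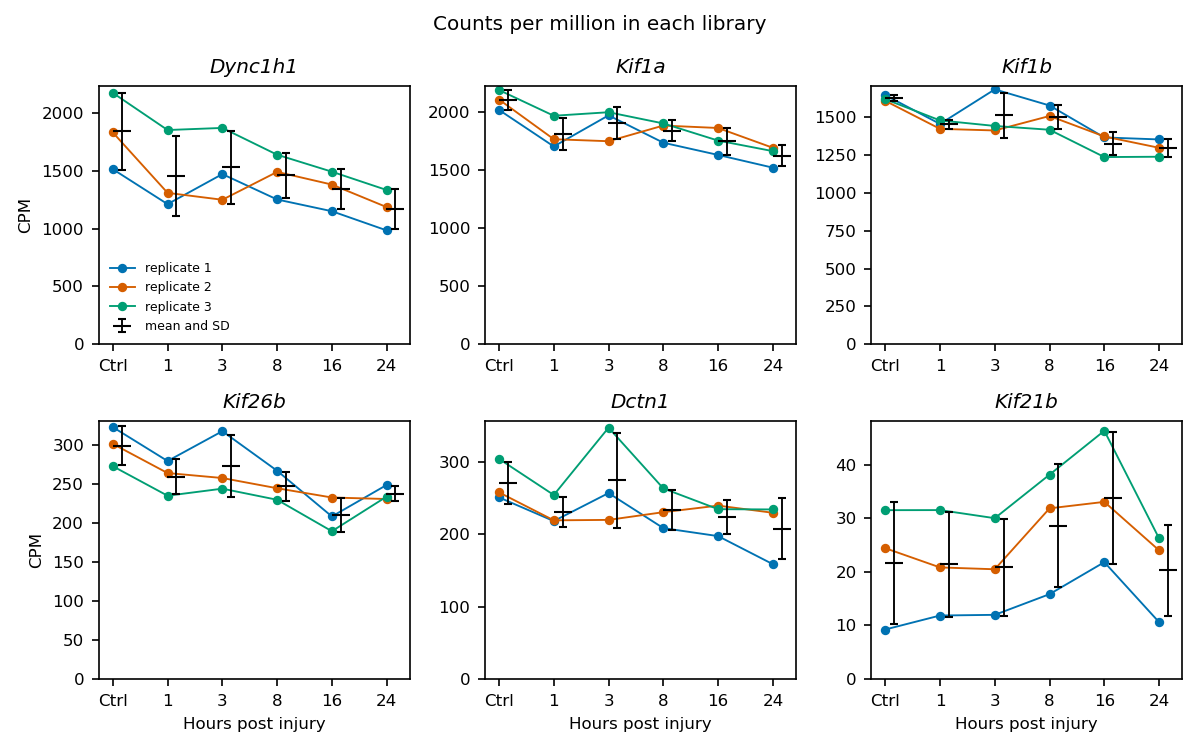
Each panel plots CPM in every library against hours post injury for 1 member, with lines joining libraries of the same replicate number and the mean and SD of 3 libraries in black. Dync1h1, Kif1a, Kif1b and Dctn1 decline toward 24 HPI, Kif26b is lowest at 16 HPI, and Kif21b peaks at 16 HPI in all 3 replicate numbers.

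Kif26b, a kinesin without motor activity, fell most at 16 HPI. It had 322, 301 and 272 CPM in control, 267, 244 and 229 CPM at 8 HPI, 208, 232 and 189 CPM at 16 HPI, and 248, 230 and 234 CPM at 24 HPI. Injured and control libraries did not overlap at any of these 3 hours. The log2 fold change was -0.27 (SE 0.0565, adjusted p = 0.00573), -0.53 (SE 0.0566, adjusted p = 1.35e-06) and -0.34 (SE 0.0562, adjusted p = 0.000392), and without the replicate block the adjusted p was 0.628, 0.0353 and 0.284. The rise from 16 to 24 HPI was 0.19 (adjusted p = 0.0318), seen in 2 of 3 replicate numbers, and it did not pass without 16 HPI replicate 1 or 3 or 24 HPI replicate 1 or 3 (adjusted p from 0.0713 to 0.254). Its paralogue Kif26a had only 5.29, 1.82 and 1.10 CPM in control and 2.25, 1.50 and 0.988 CPM at 24 HPI. These overlap, and the log2 fold change of -0.72 (SE 0.227, adjusted p = 0.0363) depended on single libraries, since leaving out control replicate 1 gave -0.31 (adjusted p = 0.504), control replicate 2 -0.73 (0.0780), 24 HPI replicate 1 -0.52 (0.255) and 24 HPI replicate 3 -0.70 (0.0862).

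The kinesin-4 motor Kif21b, which restrains microtubule growth, was the only member higher at 8 HPI. It had 9.25, 24.4 and 31.5 CPM in control, 15.8, 31.9 and 38.1 CPM at 8 HPI, 21.8, 33.1 and 46.3 CPM at 16 HPI, and 10.6, 24.0 and 26.2 CPM at 24 HPI. The libraries of replicate 1 were low in every group and the groups overlapped, but at 8 and 16 HPI each library was above the control of its own number. The log2 fold change was 0.44 (SE 0.117, adjusted p = 0.0250) at 8 HPI and 0.66 (SE 0.113, adjusted p = 0.000209) at 16 HPI, an increase of 58.3%. At 24 HPI it was -0.07 against control (adjusted p = 0.728), and the decrease from 16 to 24 HPI, by 0.74 on the log2 scale, passed (SE 0.113, adjusted p = 0.000251) in all 3 replicate numbers. Without the replicate block the adjusted p was 0.925 at 8 HPI, 0.550 at 16 HPI and 0.691 between 24 and 16 HPI. At 8 HPI, leaving out control replicate 1 gave 0.30 (adjusted p = 0.115), and leaving out any 1 of the 8 HPI libraries also ended the call (adjusted p from 0.0560 to 0.0856). Kif21b made up 2.15% ± 1.21 of the Kif21 pair in control and 3.48% ± 1.38 at 16 HPI. Kif21a, the abundant paralogue, had 561, 548 and 496 CPM in control and 538, 491 and 481 CPM at 16 HPI, a log2 fold change of -0.11 (-0.23 to 0.01, adjusted p = 0.186).

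Conventional kinesin changed little. Kif5a had 1563, 1495 and 1648 CPM in control, 1287, 1455 and 1484 CPM at 16 HPI and 1290, 1367 and 1491 CPM at 24 HPI, each injured library below each control. In log2 terms this was -0.18 (SE 0.0494, adjusted p = 0.0117) and -0.19 (SE 0.0494, adjusted p = 0.0107). It did not pass at 16 HPI without control replicate 1 (adjusted p = 0.0687) or 16 HPI replicate 3 (0.0715), or at 24 HPI without control replicate 1 (0.0630) or 24 HPI replicate 1 or 2 (0.0541 and 0.0533). Kif5c had -0.08 (-0.19 to 0.03) and Kif5b 0.02 (-0.08 to 0.13) at 24 HPI. The most abundant member, Klc1, had 1177, 1094 and 1152 CPM in control and 1104, 1116 and 1114 CPM at 24 HPI, a log2 fold change of -0.05 (-0.16 to 0.07).

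Of the other light chains, Klc2 passed at 16 HPI alone and Klc4 at 24 HPI alone. Klc2 had 196, 175 and 216 CPM in control and 149, 180 and 195 CPM at 16 HPI, overlapping, with a log2 fold change of -0.19 (SE 0.0595, adjusted p = 0.0257). It did not pass without control replicate 1 or 3 or without 16 HPI replicate 1 or 3 (adjusted p from 0.0625 to 0.150). Klc4, at a much lower level, had 14, 13.52 and 19.8 CPM in control and 17.4, 20.3 and 22.2 CPM at 24 HPI. These overlapped, but each library was above the control of its own number, and the log2 fold change of 0.33 (SE 0.0750, adjusted p = 0.00469) passed without any 1 of the 18 libraries, though not without the replicate block (adjusted p = 0.211).

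Kinesin-2, whose Kif3a, Kif3b and Kif3c motors bind cargo through Kifap3, did not pass against control at any hour in any of its 5 members. Kifap3 had 408, 447 and 421 CPM in control, 386, 407 and 388 CPM at 16 HPI and 400, 416 and 358 CPM at 24 HPI, with log2 fold changes of -0.13 at both hours (adjusted p = 0.0679 and 0.0893). At 24 HPI the values were -0.09 (-0.19 to 0.02) for Kif3a, -0.08 (-0.19 to 0.03) for Kif3b and -0.01 (-0.10 to 0.09) for Kif3c. Of the remaining kinesins, the C-terminal motor Kifc2, which walks toward minus ends, passed at 16 HPI alone. It had 89.5, 85.1 and 112 CPM in control and 66.1, 71.0 and 100 CPM at 16 HPI, lower in all 3 replicate numbers although the groups overlapped, and the difference was -0.31 on the log2 scale (SE 0.0564, adjusted p = 0.000433). Without the replicate block its adjusted p was 0.156. Kif2a, which takes microtubules apart at their ends, had 89.2, 101 and 82.8 CPM in control and 92.5, 88.5 and 72.3 CPM at 24 HPI (log2 fold change -0.12, -0.32 to 0.07). The kinesin-binding protein Kif1bp had 61.3, 62.4 and 60.8 CPM in control and 65.8, 69.1 and 59.8 CPM at 24 HPI, overlapping (0.07, -0.04 to 0.17).

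The mitotic kinesins were low throughout, in cultures kept with a mitotic inhibitor. Their summed level was 12.7 to 15.3 CPM in control and 15.0 to 16.9 CPM at 24 HPI, over all 14 genes, and 5 of the 14 reached the filter. Kif11, which pushes spindle poles apart, had 2.15, 1.38 and 1.45 CPM in control and 2.89, 2.03 and 2.45 CPM at 24 HPI. The groups overlapped, and the log2 fold change of 0.55 (SE 0.174) had an adjusted p of 0.0366. The call was lost on leaving out control replicate 2 (adjusted p = 0.0981) or 3 (0.209) or 24 HPI replicate 1 (0.134) or 3 (0.101), with at least 10 counts as the filter (0.0592), with the 2 groups alone (0.0629) and in DESeq2 (0.174). Markers of dividing cells summed to 7.39 to 9.84 CPM in control and 9.25 to 12.2 CPM at 24 HPI, and their part in the Kif11 value was not tested. Kif20a, the highest mitotic kinesin per length, had 2.79, 1.96 and 2.45 CPM in control and 2.31, 1.99 and 2.12 CPM at 24 HPI, overlapping. In its transcript, 31.2% of 50-base windows also occur in another annotated gene, Cdc23, so its rank is less certain. Kif20b, the highest by CPM in control, had 2.64, 2.91 and 3.70 CPM there and 2.83, 2.81 and 2.92 CPM at 24 HPI. In all, 14 of the 70 members were not tested for low counts, 9 of them mitotic, and 4 (Dynlrb2, Kif28, Kif12 and Kif2b) never had over 3 counts in a library.

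Several of the members that fell were long genes. So were the 2 that rose at 16 HPI, Kif21b and Dctn4, with 12184 and 11591 bases of exon. Dync1h1, Kif1a, Kif1b and Kif26b each have over 8 kb of exon, and the 13 tested members of that length had a median log2 fold change of -0.11, -0.16 and -0.21 at 8, 16 and 24 HPI. All 2508 tested genes over 8 kb had -0.04, -0.05 and -0.08, and the 2026 genes up to 2 kb had 0.00, 0.02 and 0.06. With a smooth correction for exon length, chosen after the data were seen, 4, 12 and 11 members passed at the 3 hours. Dync1h1 at 24 HPI then had -0.53 (adjusted p = 4.13e-05), Kif1a -0.32 (adjusted p = 0.000330), Kif1b -0.19 (adjusted p = 0.0106) and Kif26b -0.21 (adjusted p = 0.0196). All 4 kept their call with a smaller decrease than the -0.66, -0.38, -0.34 and -0.34 without the correction. The 8 HPI calls of Kif1a (-0.16, adjusted p = 0.0705) and Dync2h1 (-0.20, adjusted p = 0.145) were lost.

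**Figure D5:**
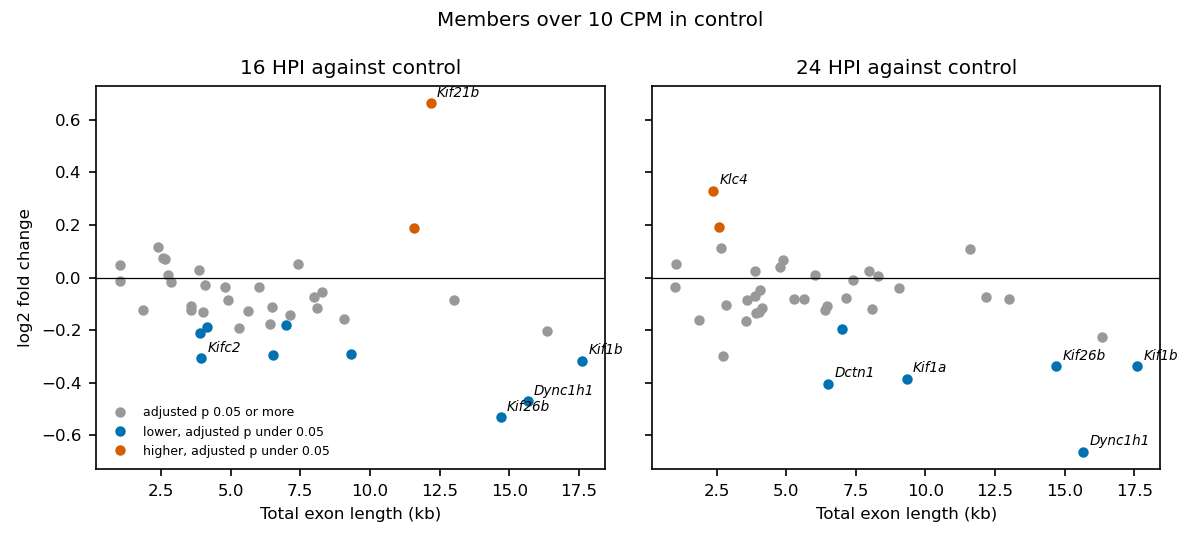
Each point is a member over 10 CPM in control, placed by total exon length in kb and by its log2 fold change at 16 HPI (left) or 24 HPI (right), and colored by the test. The lowest points at 24 HPI include Dync1h1, Kif1b and Kif26b at the long end, with Dctn1 and Kif1a at intermediate length.

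No listed partner of the motors outside the 70 genes passed with a change over 2-fold against control, but some did between hours. Calls of these partners, here and below, come from the model with the replicate block alone. They were not repeated without the block or with a library left out. Of all genes, 0.537%, 1.49% and 0.821% passed over 2-fold against control at 8, 16 and 24 HPI. Of 14 tested dynein regulators and adaptors (15 listed), 1, 5 and 2 were higher at 8, 16 and 24 HPI and 0 were lower, where 3.78%, 10.7% and 5.99% of all genes were higher and 3.90%, 11.5% and 9.03% lower. Those higher at 16 HPI were Nde1 (log2 fold change 0.89, adjusted p = 0.00461), Spdl1 (0.90, adjusted p = 0.0292), Hook2 (0.37, adjusted p = 0.0156), Bicd2 (0.27, adjusted p = 0.00282) and Ndel1 (0.20, adjusted p = 0.00201). Nde1 and Ndel1 hold the dynein regulator Lis1 on the motor, Hook2 and Bicd2 tie dynein and dynactin to cargo, and Spdl1 works with dynein at kinetochores. Of 10 markers of dividing cells, 6 were tested, with a median log2 fold change of 0.56 at 16 HPI, and their summed level was 7.39 to 9.84 CPM in control and 9.80 to 12.9 CPM at 16 HPI. Among them, 1 passed at 16 HPI, the kinetochore motor Cenpe (0.58, adjusted p = 0.00841). From 16 to 24 HPI Cenpe was lower (-0.77 on the log2 scale, adjusted p = 0.00242), as was Spdl1 (-1.06, adjusted p = 0.0225). The other tested markers of dividing cells did not pass in that step, and the median of the 6 was 0.23. Against control their median was 0.75 at 24 HPI, where 1 marker passed, higher by over 2-fold. The part of dividing cells in the values of the regulators was not tested. The median over the 14 genes was 0.15 at 16 HPI and -0.03 at 24 HPI, with a median of all genes tested of -0.002 and 0.002. Between hours, 2 of the 14 passed over 2-fold higher at 16 than at 8 HPI, and 1 over 2-fold lower at 24 than at 16 HPI. Of all genes, 0.937% and 0.508% passed over 2-fold in these steps, in either direction. None of the 6 filament subunits of dynactin outside the rule passed against control at 8, 16 or 24 HPI.

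Of 27 tested kinesin adaptors and regulators (28 listed), 1, 3 and 2 were higher and 1, 4 and 6 lower at 8, 16 and 24 HPI, beside the same shares of all genes, 3.78%, 10.7% and 5.99% higher and 3.90%, 11.5% and 9.03% lower. The 27 include Kif1bp, itself a member of the 70 genes, which did not pass at any hour. The listed entry that was not tested was the symbol Kbp, which the files do not hold. Htt, a scaffold for both motors, was lower at all 3 hours, with -0.38 (adjusted p = 0.00289) at 24 HPI. Also lower at 24 HPI were Clstn1, a cargo docking protein for kinesin-1 light chains (-0.23, adjusted p = 0.00315), Trak1, which links kinesin-1 to mitochondria (-0.25, adjusted p = 0.00345), Mapk8ip3 (JIP3), an adaptor of kinesin-1 and dynein (-0.19, adjusted p = 0.0171), Kidins220 (-0.23, adjusted p = 0.00238) and Ppfia4 (-0.25, adjusted p = 0.0175). Hap1, a partner of Htt, was higher at 24 HPI (0.49, adjusted p = 0.0208), as was Ppfia2 (0.15, adjusted p = 0.0396), a liprin that binds Kif1a.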

How the data were processed

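RNA of eDRG spot cultures was sequenced as 18 libraries after rRNA depletion and SMARTer cDNA synthesis, per the labels. The authors deposited raw counts per gene for each library, without normalization or batch correction. The submitters' processing notes name FastQC, STAR, HTSeq, DESeq2 and mm10, whereas the study's methods name featureCounts; strand use in counting is not given in the sources used here, so reads of antisense and overlapping genes cannot be told apart.

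Gene names and exon lengths came from GENCODE vM21 (GRCm38), which matched 47224 of 47643 identifiers, and promoters from RefSeq (GRCm38.p6). Tests ran in R 4.3.3 (edgeR 4.0.16, DESeq2 1.42.0, limma 3.58.1) and figures in Python 3.11.15. Entries that name no gene (25.2% to 33.2% of counts) were left out. The test took 13771 genes, those with more than 1 CPM in 3 or more libraries. One quasi-likelihood model with TMM normalization and terms for time point and replicate number was fitted to all libraries. Tests were two-sided with Benjamini-Hochberg adjustment over all tested genes, and a gene passed with an adjusted p under 0.05. The SE is the absolute log2 fold change over the square root of F, and intervals are 95%. Both cover the spread between libraries that is left once replicate number is fitted. The detection limit of 3 counts covers counting error only.

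Samples with the same replicate number deviated together: the correlation of their deviations from the group means was 0.619 on average (0.484 to 0.765, 45 pairs), against -0.308 for 90 pairs with different numbers, so the number was taken as a block. On data simulated for 16 HPI against control over 13547 genes, 80 of 100 genes changed 1.5-fold and 100 of 100 changed 3-fold passed, with 10 false passes. The changed genes were drawn above a floor of expected counts, and all genes had the same fixed dispersion. Changes under 1.5-fold, where most passes of members lie, and changed genes of low counts were not simulated.

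Members were named by role. The rule was to give values in every library for members that passed at any hour against control and for the highest member per length in each role; for most, the text prints control and the hours its statements are about. The others named come from a fixed list, and Dynll2 and Kif20b were given library by library after their values were seen. The members and lists were chosen with earlier results of these data known. Alternatives tried were DESeq2's size factors, its Wald test, 2 other filters on low counts, no replicate block, the 2 compared groups alone, residual rRNA and mitochondrial genes left out, each library left out in turn, RPKM over the longest transcript and, added after the data were seen, a smooth length correction.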

Additional observations from a re-analysis of the deposited data

Results flagged for a closer look

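The change against control differed for 8 members between 16 and 8 HPI and for 2 between 24 and 16 HPI (Kif26b in both), which is 14.3% and 3.57% of the 56 tested, beside 15.2% and 9.82% of all genes, by the direct comparison of the hours with edgeR's quasi-likelihood test and Benjamini-Hochberg adjustment. Between 16 and 8 HPI, 2 were higher at 16 HPI, Kif13b by 0.35 (SE 0.0992, adjusted p = 0.0190) and Dctn4 by 0.15 (SE 0.0495, adjusted p = 0.0394) on the log2 scale. Lower at 16 HPI than at 8 HPI were Kif26b (log2 fold change -0.26, SE 0.0568, adjusted p = 0.00344), Kif1b (-0.21, SE 0.0565, adjusted p = 0.0161), Kifc2 (-0.20, SE 0.0573, adjusted p = 0.0186), Kifap3 (-0.16, SE 0.0507, adjusted p = 0.0408), Kif5a (-0.15, SE 0.0494, adjusted p = 0.0418) and Kif5b (-0.15, SE 0.0498, adjusted p = 0.0488). Between 24 and 16 HPI, Kif21b was lower (-0.74, SE 0.113, adjusted p = 0.000251) and Kif26b higher (0.19, SE 0.0566, adjusted p = 0.0318).

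The values of Kif26b between 16 and 8 HPI and of Kif21b passed without any 1 of the 18 libraries. Kif13b did not pass without 8 HPI replicate 3 (0.26) or 16 HPI replicate 2 (0.25), nor Kif1b without 8 HPI replicate 1 (-0.19), 8 HPI replicate 2 (-0.19) or 16 HPI replicate 3 (-0.15), nor Kifc2 without 8 HPI replicate 1 (-0.18), 8 HPI replicate 2 (-0.17), 16 HPI replicate 1 (-0.16) or 16 HPI replicate 2 (-0.17). Kif26b between 24 and 16 HPI was lost without 16 HPI replicate 1 (0.17), 16 HPI replicate 3 (0.15), 24 HPI replicate 1 (0.21) or 24 HPI replicate 3 (0.13). Dctn4 was lost without any 1 of 5 libraries (8 HPI replicates 1, 2 and 3 and 16 HPI replicates 1 and 3, values from 0.13 to 0.18). Kif5a, Kif5b and Kifap3 were lost without any 1 of 12, 14 and 8 libraries, among them 8 HPI replicates 1 and 3 and 16 HPI replicate 3 for each of the 3 genes. Without 8 HPI replicate 1, Kif5b had -0.09 (adjusted p = 0.303).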

How the results depend on the processing

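No direction reversed for any of the 37 passes of members under any alternative. The replicate block mattered most. Without the replicate block, the pairing by number was ignored and the members passing went from 6 to 0 at 8 HPI, from 11 to 2 at 16 HPI and from 10 to 2 at 24 HPI against control, from 8 to 0 between 16 and 8 HPI and from 2 to 0 between 24 and 16 HPI, so 4 of 37 passes were kept. At 1 HPI, where 0 passed, the count was 3 with the DESeq2 Wald test, 1 with at least 10 counts over all libraries, 8 with the 2 compared groups only and 2 with residual rRNA and mitochondrial genes left out. At 3 HPI it was 1 with the DESeq2 Wald test. With 1 library left out at a time, the counts ranged from 0 to 2 at 1 HPI, 0 to 0 at 3 HPI, 1 to 6 at 8 HPI, 8 to 14 at 16 HPI and 7 to 11 at 24 HPI, from 2 to 9 between 16 and 8 HPI, and from 1 to 3 between 24 and 16 HPI. The libraries that moved a count by over 1.5 times, beside those named for 8 HPI, were 8 HPI replicates 1, 2 and 3 (2, 4 and 3), 16 HPI replicates 1, 2 and 3 (4, 5 and 4), control replicate 2 (5) and 1 HPI replicate 1 (5) between 16 and 8 HPI, and 16 HPI replicate 1 and 24 HPI replicate 1 (1 each) between 24 and 16 HPI. At 1 HPI, leaving out 3 HPI replicate 2 gave 2 and leaving out 1 HPI replicate 3, 3 HPI replicate 1, 3 HPI replicate 3 or any 16 HPI library gave 1. Passes kept numbered 37 of 37 with DESeq2's size factors and with residual rRNA and mitochondrial genes left out, 35 with the length correction, 33 with the DESeq2 Wald test, 32 with at least 10 counts, 35 of 36 with over 1 CPM in all 18 libraries and 29 with the 2 compared groups only. With the 2 compared groups only, Kif1a at 8 HPI (adjusted p = 0.0586) and Kif5a (0.111) and Klc2 (0.0617) at 16 HPI did not pass. The causes were not tested. Depth limits the members under 10 CPM, 31 of the 70, among them Kif26a and Kif11.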
